A study of Mus musculus with 38 samples.

Results

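Complex I (NADH:ubiquinone oxidoreductase) genes of the mouse left ventricle are described here, taken as the genes whose symbol starts with Nduf and that had at least 10 counts in at least 8 libraries. The tables hold 45 such symbols among 29564 genes, and 44 passed. They comprise 7 core subunits, 28 accessory subunits, 7 assembly factors (Ndufaf1 to Ndufaf7) and the NDUFA4 family with 2 genes (Ndufa4 and Ndufa4l2). The 1 gene left out is Ndufa9, an accessory subunit, which was listed at 0 in 37 of 38 libraries and at 0.161 transcripts per 1000000 (TPM) in 1. A gene listed at 0 in estimated counts is not shown to be absent from the tissue, and how its reads were assigned was not tested. All 44 members were protein-coding and mapped to 16 chromosomes of the GRCm38 assembly.

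RNA-seq was performed on the left ventricle of 38 wild-type C57BL6 mice (C57BL/6J in the study's methods), 1 library per mouse. The non_failing group (n = 8) received vehicle. The other mice carried a model of heart failure with preserved ejection fraction (HFpEF), made with a high-fat diet and L-NAME, a nitric oxide synthase inhibitor. They received vehicle (HFpEF+Veh, n = 8), TYA-018, an inhibitor of the deacetylase HDAC6 (HFpEF+TYA-018, n = 11), or empagliflozin, an inhibitor of the renal glucose transporter SGLT2 (HFpEF+SGLT2i, n = 11), by mouth once daily. The labels call the mice female and the study's methods call them male, and the sources also differ on the length of treatment. The labels give no age at collection and name no batch. Since diet and L-NAME separate non_failing from all other groups, their effects cannot be told apart.

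Complex I is the entry point of electrons from NADH into the respiratory chain. Its core subunits, shared with bacteria, hold the flavin and the iron-sulfur clusters and, in the membrane, pump protons. The membrane part of the core is encoded by mitochondrial DNA, so the nuclear core genes described here form the peripheral arm. Accessory subunits wrap and stabilise the core, and assembly factors bind intermediates and leave before the enzyme is complete. The enzyme is built from an N module, which oxidises NADH, a Q module, which reduces ubiquinone, and the membrane arm. Cardiomyocytes are packed with mitochondria and depend on oxidative phosphorylation for contraction.

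The libraries held 21.5 to 59.3 M counts (median 29.5, M standing for 1000000), of which 28.5 to 39.5% fell on mitochondrially encoded genes. A library labelled HFpEF+Veh, V2523, stood apart by liver transcripts. The summed TPM of 8 hepatocyte markers was 1199 in it, against 8.35 to 309 in the other 37 libraries, and results with this group are also given without it. The tissue label was checked against markers. Summed levels over the 38 libraries were 15300 to 29300 TPM for 7 cardiomyocyte markers, 166 to 582 TPM for 6 fibroblast markers, 1344 to 3830 TPM for 5 endothelial markers, 42.7 to 113 TPM for 4 macrophage markers and 134 to 305 TPM for 5 smooth muscle and pericyte markers. Those of 5 atrial markers were 19.2 to 306 TPM, of 5 brown adipocyte markers 19.7 to 54.6 TPM and of 5 white adipocyte markers at most 0.671 TPM.

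Subunits and assembly factors were transcribed at very different levels. TPM is corrected for transcript length, so levels can be set side by side between genes. The labels give single-end reads and the study's methods paired-end reads, which bears on how the effective lengths behind TPM were obtained, so levels of short genes are less certain. Over the 38 libraries the mean level had a median of 267 TPM among the core genes, 497 TPM among the accessory genes and 16.3 TPM among the assembly factors, and the median subunit stood 28.1-fold above the median assembly factor. The most abundant member was Ndufa5, a peripheral subunit of the Q module, with a mean of 1166 TPM ± 145 (SD, n = 38). It was followed by the membrane arm subunits Ndufb8 (905.5 TPM) and Ndufb9 (902.7 TPM). Ndufaf7, a methyltransferase of the mitochondrial matrix, was the lowest at 4.22 TPM.

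**Figure D1:**
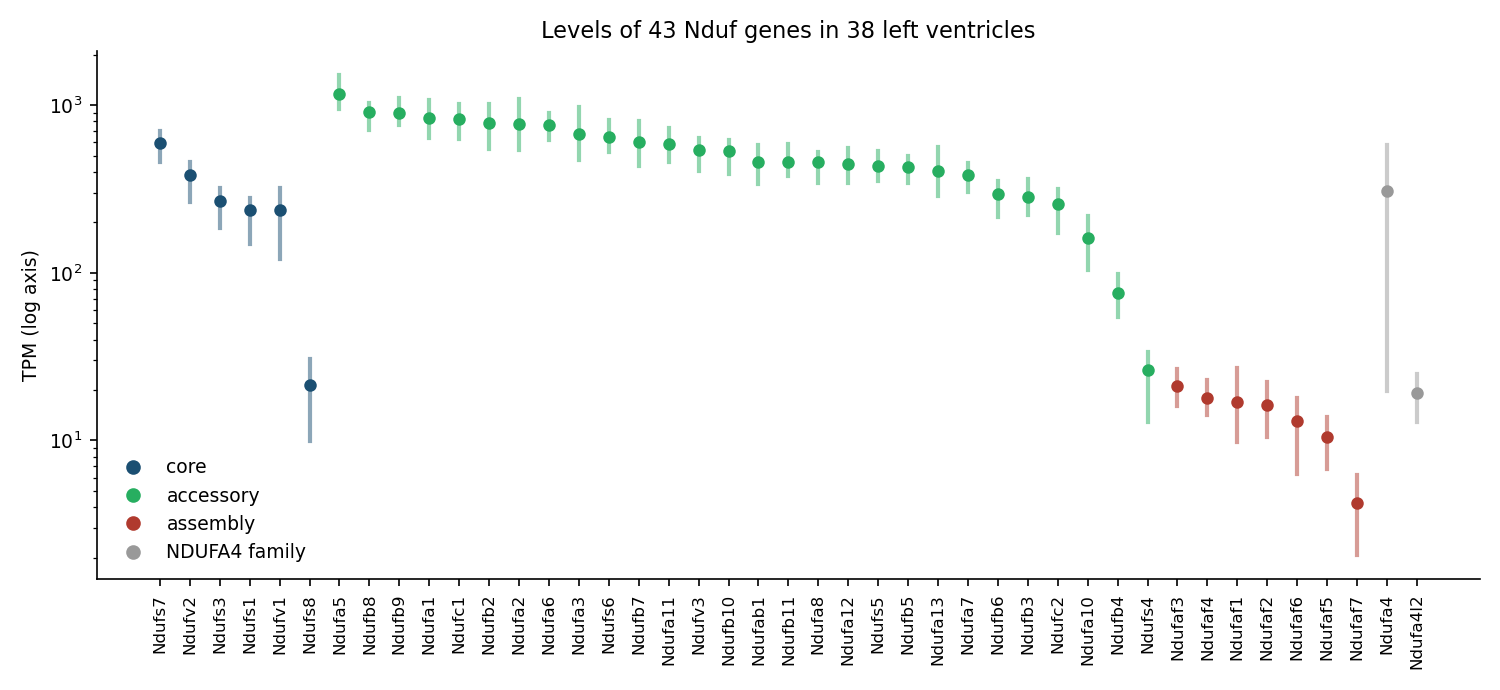
Mean TPM (points) and range over 38 libraries (lines) of 43 of the 44 members on a log axis, grouped by class and ordered by mean. Assembly factors lie between 4.22 and 21.1 TPM, among the lowest members, while 5 of the 6 core genes shown lie between 237 and 591 TPM and Ndufs8 at 21.3 TPM.

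Within the core class Ndufs7, which carries the last iron-sulfur cluster before ubiquinone, was the most abundant at 591 TPM. The core genes Ndufs1 (237.5 TPM) and Ndufv1 (237.3 TPM), which form much of the NADH-oxidising tip, were nearly level. The core gene Ndufs8 reached 21.3 TPM, and among accessory genes Ndufs4, needed for a stable N module, had the lowest level at 26.2 TPM. In the order of mean level, the ranges of neighbours overlapped in 40 of 43 cases. The ranges did not overlap for the steps from Ndufa10 (161 TPM) to Ndufb4 (75.4 TPM), from Ndufb4 to Ndufs4, and from Ndufaf5 (10.5 TPM) to Ndufaf7. Ndufa4, now known as a subunit of cytochrome c oxidase, varied most, from 19.9 to 579 TPM with a coefficient of variation of 50.9%. Estimated counts carried fractions in 38 of 38 libraries for 10 members, among them Ndufa4, Ndufa12, Ndufv1, Ndufs8 and Ndufb9. A count within 0.005 of a whole number was taken as whole. Fractions arise where reads are divided between features, so these values are less certain, and which features shared the reads was not tested.

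The whole family took a similar share of the transcriptome in the 4 groups. Summed over the 44 members, its share of the TPM listed was 1.85% ± 0.176 in the non_failing hearts (SD, n = 8) and 1.88% ± 0.152 in the HFpEF+Veh hearts (SD, n = 8). TYA-018 hearts had 1.91% ± 0.156 (SD, n = 11) and empagliflozin hearts 1.80% ± 0.162 (SD, n = 11). The groups overlapped throughout, from 1.56 to 2.19% in single libraries. Without V2523 the HFpEF+Veh share was 1.87% ± 0.163 (n = 7).

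Differences between groups were tested on the counts with the quasi-likelihood F test of edgeR, with library sizes scaled by TMM factors, and p-values were adjusted by the Benjamini-Hochberg method over the 13765 genes tested. Genes with an adjusted p under 0.05 are referred to as called. A log2 fold change is given as first group minus second, with its standard error (SE), and the level behind a test is the log2 of TMM-scaled counts per 1000000 (log2 CPM), which is not corrected for length. In bulk tissue, fewer cells of a type and less RNA per cell cannot be told apart. The comparisons with HFpEF+Veh share that group, and those with non_failing share that one.

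Across the 6 comparisons, 4 members were called at least once. They were Ndufs7 of the core and the accessory genes Ndufa12, Ndufa8 and Ndufa3. Ndufa12 is an N module subunit that takes the place of its relative, the assembly factor Ndufaf2. Ndufa8 is a disulfide-rich subunit on the intermembrane space side of the membrane arm, and Ndufa3 is a small membrane-spanning subunit. On GRCm38, Ndufa12 spans chr10:94198720-94221443 (plus strand), Ndufs7 chr10:80249121-80256794 (plus), Ndufa8 chr2:36036326-36049406 (minus) and Ndufa3 chr7:3617373-3620327 (plus), by the GENCODE annotation.

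The promoters of these 4 genes are shown because they are the members called by the edgeR test described above. Some of these calls depended on the processing, as given below, and members not called are not shown to be unchanged. Each runs from 250 bases before to 50 bases after the RefSeq gene start on GRCm38.p6, 5′ to 3′ along the gene, and capitals mark a motif match found by a search.
Ndufa12: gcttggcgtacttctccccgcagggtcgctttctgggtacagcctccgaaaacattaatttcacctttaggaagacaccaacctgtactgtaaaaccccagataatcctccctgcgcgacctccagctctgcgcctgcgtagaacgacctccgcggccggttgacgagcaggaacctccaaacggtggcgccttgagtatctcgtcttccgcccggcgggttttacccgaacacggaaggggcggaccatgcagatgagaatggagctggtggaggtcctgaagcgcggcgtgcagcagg
Ndufs7: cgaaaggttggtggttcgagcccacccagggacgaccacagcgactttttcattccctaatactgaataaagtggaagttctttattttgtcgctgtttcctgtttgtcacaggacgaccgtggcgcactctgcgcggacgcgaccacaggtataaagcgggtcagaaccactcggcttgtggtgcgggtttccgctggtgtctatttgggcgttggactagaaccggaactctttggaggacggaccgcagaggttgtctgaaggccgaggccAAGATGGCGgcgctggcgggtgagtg
Ndufa8: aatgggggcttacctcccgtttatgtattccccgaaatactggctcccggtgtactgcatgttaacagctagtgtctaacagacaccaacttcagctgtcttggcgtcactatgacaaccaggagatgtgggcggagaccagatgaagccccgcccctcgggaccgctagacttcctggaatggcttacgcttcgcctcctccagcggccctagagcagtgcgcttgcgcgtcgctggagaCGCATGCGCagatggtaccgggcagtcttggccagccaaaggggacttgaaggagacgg
Ndufa3: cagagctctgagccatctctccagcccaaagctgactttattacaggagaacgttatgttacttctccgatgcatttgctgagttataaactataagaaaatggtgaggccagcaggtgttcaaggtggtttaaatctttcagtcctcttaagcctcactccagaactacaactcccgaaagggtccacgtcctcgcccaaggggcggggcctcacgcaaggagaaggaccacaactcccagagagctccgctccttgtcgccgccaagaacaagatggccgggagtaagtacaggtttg
These windows are chr10:94198785-94199084 (plus strand) for Ndufa12, chr10:80249199-80249498 (plus) for Ndufs7, chr2:36049289-36049588 (minus) for Ndufa8 and chr7:3617123-3617422 (plus) for Ndufa3. The RefSeq start lies downstream of the outermost GENCODE start by 315 bases for Ndufa12, 328 for Ndufs7 and 68 for Ndufa8, and at the same base for Ndufa3. The windows of Ndufa12 and Ndufs7 therefore lie inside the GENCODE gene.

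The search covered, on both strands, 4 motifs of factors known to act on respiratory chain genes. These were GCGCATGCG for NRF1, TCAAGGTCA for estrogen-related receptors (ERR), CCGGAAGT for ETS factors such as GABPA, and AAGATGGCG for YY1. The NRF1 letters and their reverse complement overlap by all but 1 base, so 1 site can match on both strands. Of the 44 members, 38 had a promoter in the table, with 40 starts between them. The NRF1 letters were present in 4 of these 40 windows (10%, against 1.75% of all 32851 promoters), in Ndufa8, Ndufa11, Ndufaf4 and Ndufaf5. The YY1 letters were also present in 4 (10%, against 1.4%), in Ndufs7, Ndufs4, Ndufs6 and Ndufc1. With the start as base 1, these YY1 matches began at bases 25, 36, 34 and 23, so all lay after the start. The NRF1 matches lay before the start except in Ndufaf5. The ETS letters occurred in Ndufs3 only (2.5%, against 3.89%), and the ERR letters in no member window (against 0.423% of all). The windows of Ndufa12 and Ndufa3 held none of the 4 motifs. A match describes letters in a window and is not evidence that a factor binds there. Member windows had a median GC content of 59.3%, against 52.7% over all promoters.

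HFpEF+Veh was first compared with non_failing hearts, to describe the model itself. Most members lay slightly lower in HFpEF+Veh, 37 of 44, and 1 was called. The median log2 fold change of the members was -0.091 against 0.011 over all genes tested. Among all genes 3.15% were called in this comparison, so 1 of 44 is near the background. By an unadjusted p under 0.05, 5 members were lower (11.4%) against 7.41% of all genes, and 0 were higher. With a single library left out, 2 to 8 members were lower and 0 to 1 higher at that level.

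Ndufa12 was the called member and fell by 0.33 on the log2 scale (SE 0.079, 95% interval -0.494 to -0.172, adjusted p = 0.0118 by edgeR). In non_failing hearts its level ran from 439 TPM through a median of 491 to 557 TPM. In HFpEF+Veh it ran from 391.5 through 412 to 463 TPM. The upper vehicle value was that of V2523, and without this library the vehicle range ended at 425 TPM, below every non_failing heart. On the log2 CPM scale of the test the groups did not overlap even with V2523, at 8.03 to 8.41 in non_failing and 7.75 to 8.02 in HFpEF+Veh.

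By class, 6 of 7 core genes were lower in HFpEF+Veh than in non_failing (median log2 fold change -0.18), as were 23 of 28 accessory genes (-0.070) and 7 of 7 assembly factors (-0.13). By place in the enzyme, 8 of 8 nuclear N module genes, 6 of 7 Q module genes and 14 of 19 membrane arm genes were lower. In the core class the smallest p belonged to Ndufs3, a Q module subunit, at -0.22 (SE 0.093, adjusted p = 0.229 by edgeR). Its range was 7.82 to 8.35 log2 CPM in non_failing and 7.62 to 8.06 in HFpEF+Veh, so the groups overlapped. Ndufaf6, an early assembly factor, stood at -0.34 (SE 0.134, adjusted p = 0.19 by edgeR), with 3.18 to 3.86 log2 CPM against 2.88 to 3.53. All 8 vehicle hearts were below the non_failing mean for both genes. Ndufa5 differed by -0.14 (SE 0.119, adjusted p = 0.612 by edgeR).

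The size of the family's difference depended on how libraries were scaled, while the members' median stayed negative under each setting. The summed TPM share did not fall, at 1.85% in non_failing and 1.88% in HFpEF+Veh. With total counts in place of TMM factors, 26 of 44 members were lower in HFpEF+Veh and the members' median was -0.018, while all genes moved to 0.080. With limma on log2(TPM + 1), 25 were lower, with medians of -0.016 and 0.063. The distance between the members' median and that of all genes was steadier, between -0.111 and -0.079 over 12 settings. Without V2523, 37 members were lower, the median was -0.112 and Ndufa12 was again the called member. The share of all genes called in that fit is not given.

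Cardiomyocyte markers moved the same way. All 7 were lower in HFpEF+Veh, 3 of them called, with a median of -0.345 on the log2 scale. Their summed level was 20080 to 29300 TPM in non_failing and 19860 to 23600 TPM in HFpEF+Veh. Of 6 fibroblast markers, 5 were higher and 2 called, and summed erythroid RNA was 3786 to 8147 TPM in non_failing and 5780 to 41870 TPM in HFpEF+Veh. Brown adipocyte markers were called higher in 2 of the 3 tested, at 26.8 to 39.75 TPM summed over 5 in HFpEF+Veh and 19.7 to 26.8 TPM in non_failing. No hepatocyte marker was called by edgeR with V2523, and 7 of 8 were called lower in HFpEF+Veh without it. The part of cell makeup in the member differences was not tested.

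**Figure D2:**
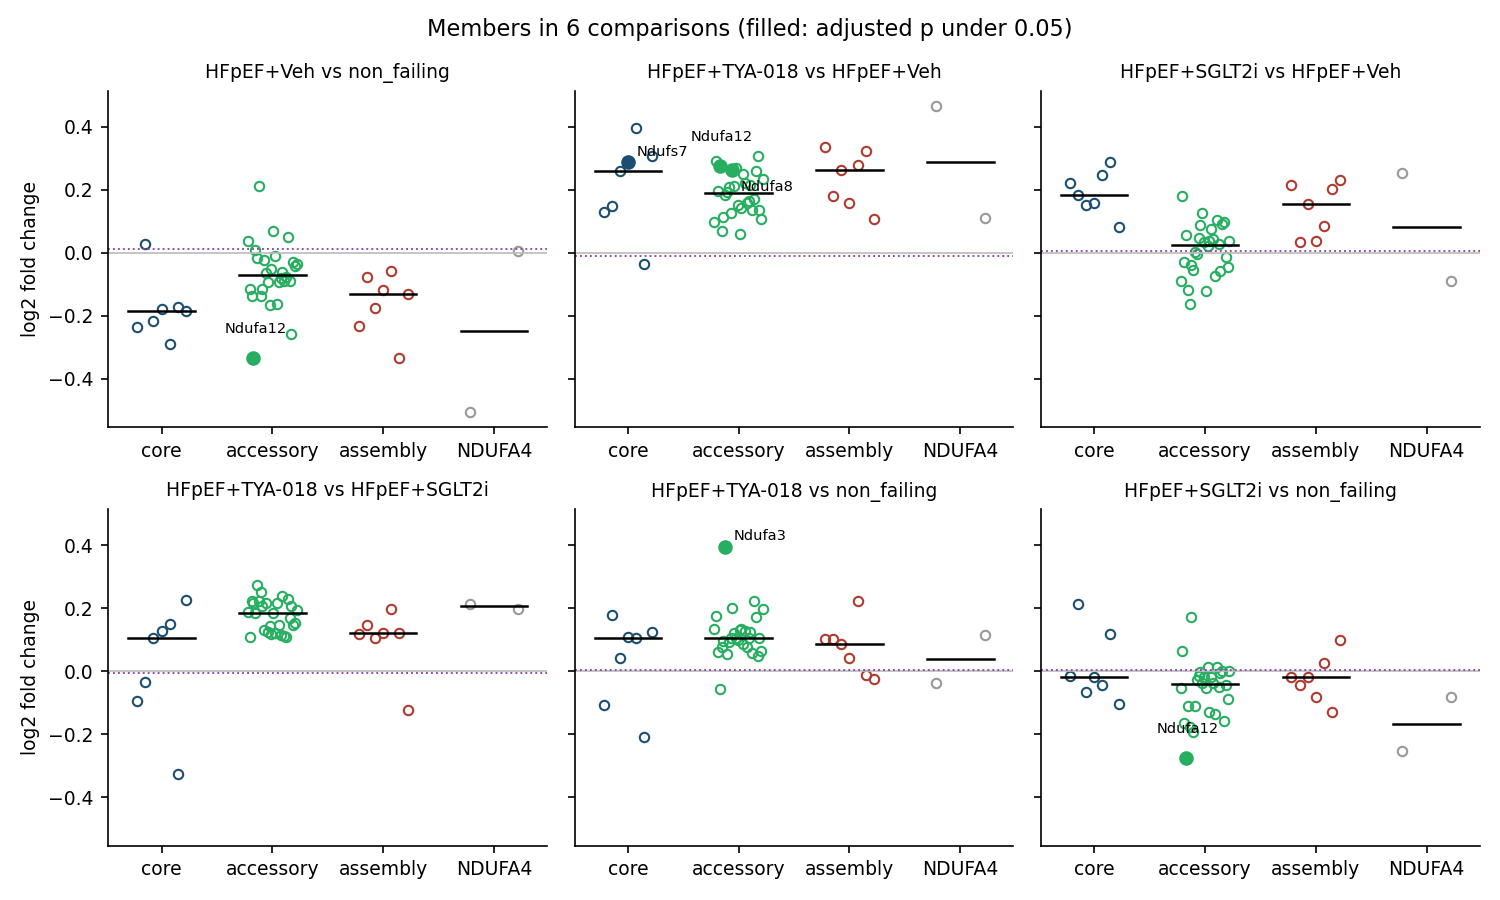
Log2 fold change (y axis) of the 44 members in the 6 comparisons, by class, with the class median as a black line and the median of all genes tested as a dotted line. Filled points passed an adjusted p under 0.05; in HFpEF+TYA-018 against HFpEF+Veh 43 of 44 points lie above 0 and 3 are filled.

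The effect of the HDAC6 inhibitor in the model was measured against the HFpEF+Veh hearts. Here 43 of 44 members were higher in the treated hearts, and 3 were called. Ndufs7, Ndufa12 and Ndufa8 rose by 0.26 to 0.29 on the log2 scale. The members' median log2 fold change was 0.195, against -0.009 over all genes. The called share was 3 of 44, where 1.93% of all genes were called in either direction. At an unadjusted p under 0.05, 22 members were higher (50%) against 8.73% of all genes, and 0 were lower. Members of a class varied together from heart to heart, as given below. Such counts, here and in the other comparisons, are therefore not counts of separate results.

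Ndufs7 rose by 0.29 on the log2 scale (SE 0.072, 95% interval 0.142 to 0.434, adjusted p = 0.0274 by edgeR). Its level was 8.29, 8.56 and 8.73 log2 CPM at the lowest, median and highest HFpEF+Veh heart, and 8.62, 8.86 and 8.97 in HFpEF+TYA-018. All 11 treated hearts exceeded the vehicle mean, while the ranges overlapped between 8.62 and 8.73. In TPM the medians were 568 and 611, with more overlap (503 to 604 against 546 to 668 TPM). The difference was 0.16 (adjusted p = 0.143 by edgeR) with total counts as library sizes and 0.14 (adjusted p = 0.173) by limma on log2(TPM + 1).

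Ndufa12, the gene that fell in the model, rose by 0.28 (SE 0.074, 95% interval 0.125 to 0.425, adjusted p = 0.0404 by edgeR). Its level was 7.90, 8.16 and 8.40 log2 CPM at the lowest, median and highest treated heart, against 7.75, 7.93 and 8.02 in HFpEF+Veh. In 10 of 11 treated hearts it exceeded the vehicle mean, and in TPM the treated hearts ran from 390 to 492. By limma on log2(TPM + 1) the difference was 0.12 (adjusted p = 0.148) and with total counts as library sizes 0.145 (adjusted p = 0.167 by edgeR).

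Ndufa8 rose by 0.26 (SE 0.072, 95% interval 0.117 to 0.409, adjusted p = 0.0451 by edgeR). It ran from 8.05 through 8.34 to 8.43 log2 CPM in HFpEF+Veh and from 8.40 through 8.62 to 8.75 in HFpEF+TYA-018. The ranges overlapped between 8.40 and 8.43, and 11 of 11 treated hearts exceeded the vehicle mean. The difference was 0.13 (adjusted p = 0.245 by edgeR) with total counts as library sizes and 0.11 (adjusted p = 0.331) by limma. With the length offset Ndufa8 stood at 0.24 (adjusted p = 0.0693 by edgeR) and was not called. Its lowest vehicle value came from V2532, a library that also stood apart for other accessory genes.

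**Figure D3:**
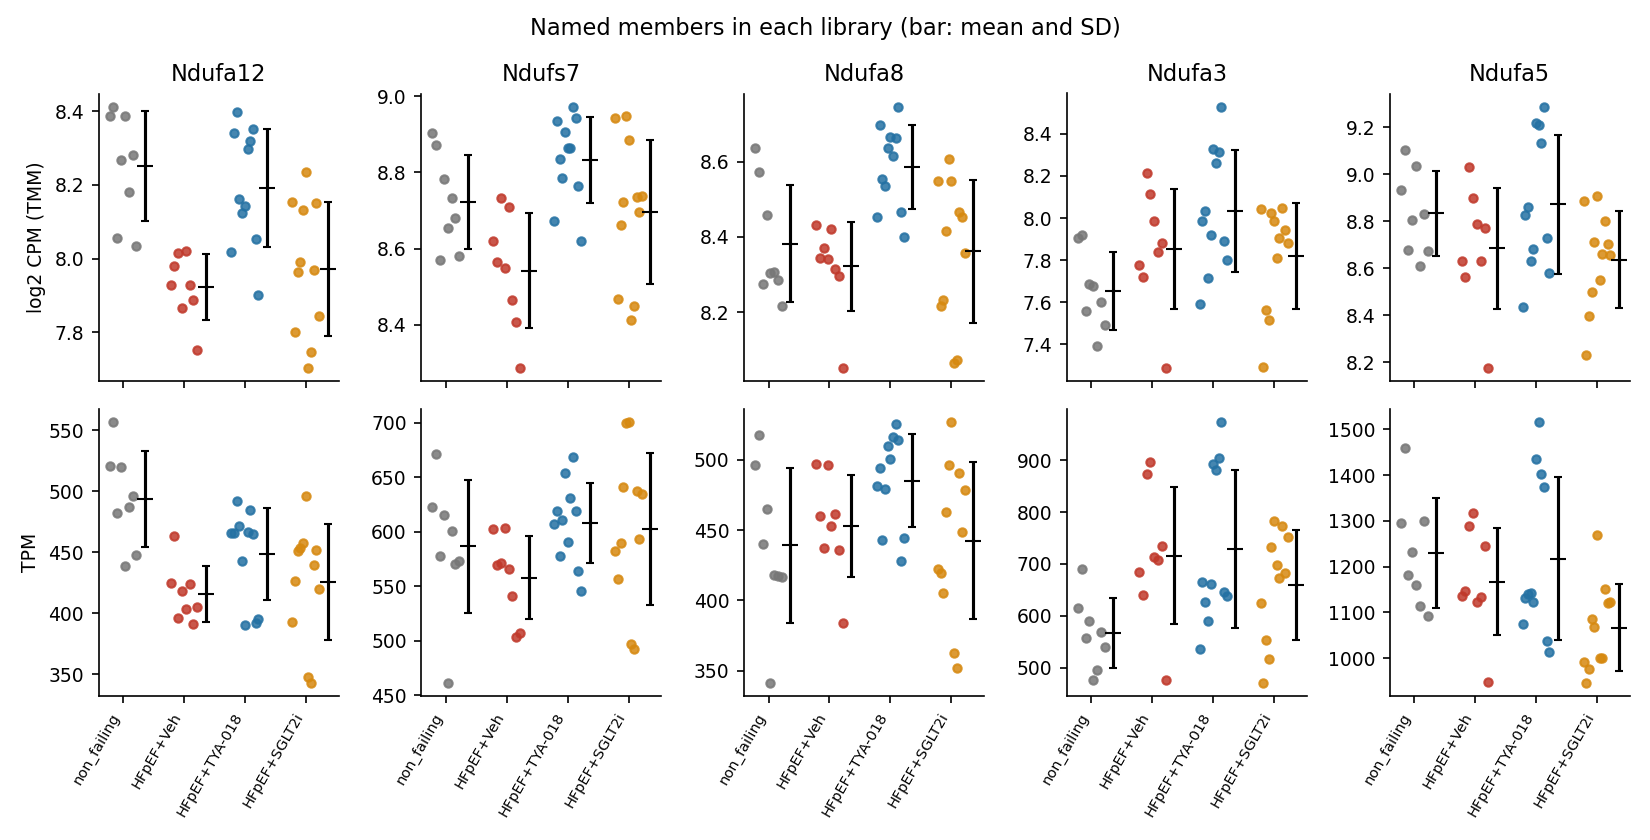
Levels of Ndufa12, Ndufs7, Ndufa8, Ndufa3 and Ndufa5 in each library, as log2 CPM after TMM scaling (upper row) and as TPM (lower row); points are libraries, bars the group mean and SD. For Ndufa12 the 8 HFpEF+Veh points end at 8.02 log2 CPM, below the lowest non_failing heart at 8.03, and the TYA-018 points reach 8.40.

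Core, accessory and assembly genes were each mostly higher with TYA-018. Of the core genes 6 of 7 were higher (median log2 fold change 0.26), with 4 at an unadjusted p under 0.05. Of the accessory genes 28 of 28 were higher (0.19, 13 at that level), and of the assembly factors 7 of 7 (0.26, 5 at that level). The 1 member below 0 was Ndufv1, the flavin-binding subunit, at -0.037 (SE 0.168). By place in the enzyme the medians were 0.18 for 8 N module genes, 0.21 for 7 Q module genes and 0.17 for 19 membrane arm genes. The accessory rise was uneven between treated hearts. With each gene centred over the libraries, accessory means were highest in V2550, V2551, V2552 and V2555 (0.19, 0.239, 0.257 and 0.426 log2 CPM). The other TYA-018 hearts ran from -0.132 to 0.173, and HFpEF+Veh from -0.416 to 0.1.

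Several members lay just outside the threshold. Ndufb10 of the membrane arm differed by 0.27 (SE 0.079, adjusted p = 0.0614 by edgeR) and Ndufv2, a core subunit with an iron-sulfur cluster, by 0.31 (SE 0.091, adjusted p = 0.0655 by edgeR). Ndufaf3, which helps to build the Q module, had the smallest p of the assembly factors, with 0.26 (SE 0.081, adjusted p = 0.0794 by edgeR). Its range was 4.05 to 4.54 log2 CPM in HFpEF+Veh and 4.27 to 4.77 in HFpEF+TYA-018. Ndufa5 differed by 0.19 (SE 0.111, adjusted p = 0.363 by edgeR), with 8.18 to 9.03 log2 CPM against 8.44 to 9.29.

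The calls in this comparison were sensitive to single hearts and to scaling. Without V2523, 44 of 44 members were higher with a median of 0.207, and Ndufs7 alone was called. The share of all genes called in that fit is not given, so this call is not set against a background. Leaving out V2529, V2530 or V2532, each from HFpEF+Veh, left 0 called. In each fit with a library left out at least 17 members were higher at an unadjusted p under 0.05. The share of all genes at that level was 8.73% in the full fit and is not given for the fits with a library left out. With total counts as library sizes 34 of 44 members were higher (members' median 0.067, all genes -0.137) and with limma on log2(TPM + 1) 32 of 44 (0.048 and -0.084), with 0 called in either and 2 and 4 members higher at an unadjusted p under 0.05, against 1.29 and 1.77% of all genes. Relative to the median of all genes the members stood 0.132 to 0.207 higher over 12 settings. Cardiomyocyte markers were higher in 6 of 7 cases (median 0.20, 0 called by edgeR) and fibroblast markers lower in 6 of 6 (median -0.228, 0 called). All 8 hepatocyte markers were called lower, at summed levels of 8.35 to 28.6 TPM against 17.55 to 1199 TPM in HFpEF+Veh, where V2523 is the highest, and without V2523 2 of 8 were. The part of these cell types was not tested.

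HFpEF+SGLT2i was compared with the same vehicle hearts. In this comparison 31 of 44 members were higher under empagliflozin, with a median log2 fold change of 0.046 against 0.006 over all genes. No member was called by edgeR, by DESeq2 or by limma, while 0.85% of all genes were called by edgeR (117 genes, and 2 without V2523). At an unadjusted p under 0.05 there was 1 higher member by edgeR (2.27%), against 4.14% of all genes. This was Ndufs7, with 0.16 (SE 0.072, unadjusted p = 0.0331, adjusted p = 0.434 by edgeR) and 8.41 to 8.95 log2 CPM against 8.29 to 8.73.

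By class, core genes were higher in 7 of 7 cases (median 0.18), assembly factors in 7 of 7 (0.16) and accessory genes in 16 of 28 (0.025). A difference between the classes was not tested. The accessory gene with the smallest p was Ndufb10 at 0.13 (SE 0.079, adjusted p = 0.612 by edgeR) and the assembly factor Ndufaf3 at 0.16 (SE 0.081, adjusted p = 0.524 by edgeR). Ndufa5 stood at -0.056 (SE 0.110, adjusted p = 0.903 by edgeR), and its sign turned with the effective-length deviation of the libraries as a covariate (0.093). Ndufa12 stood at 0.057 (SE 0.073, adjusted p = 0.839 by edgeR), and its sign turned with total counts as library sizes (-0.022). With total counts 18 of 44 members were higher (median -0.034) and all genes lay at -0.070, and by limma on log2(TPM + 1) 17 of 44 were (-0.015, all genes -0.041). Relative to the median of all genes the members stood 0.036 and 0.026 higher in these settings and 0.040 in the TMM fit. Hepatocyte markers were called lower in 8 of 8 cases, at summed levels of 13.6 to 26.35 TPM against 17.55 to 1199 TPM in HFpEF+Veh, where V2523 is the highest, and without V2523 0 of 8 were called by edgeR. Cardiomyocyte markers were higher in 6 of 7 cases (median 0.059), fibroblast markers lower in 5 of 6 (median -0.221) and erythroid markers lower in 5 of 5 (median -0.884), with 0 called by edgeR in each list. The part of these cell types was not tested.

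Within the empagliflozin group 2 hearts, V2571 and V2572, had the highest mitochondrially encoded share of the series, 39.0 and 39.5%. They also had the lowest mean member level, at -0.386 and -0.358 log2 CPM after each gene was centred over the libraries. V2571 also had the lowest summed cardiomyocyte markers of the series (15300 TPM) and the highest summed endothelial markers (3830 TPM), and their part was not tested. Without V2571 and V2572, a choice made after seeing the data, 34 of 44 members were higher than in HFpEF+Veh with a median of 0.111, and 17 had an unadjusted p under 0.05, though 0 were called by edgeR. In that fit 9.33% of all genes were higher and 9.28% lower at an unadjusted p under 0.05, and 2.33% were called. Without V2523 instead, 30 members were higher with a median of 0.058.

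**Figure D4:**
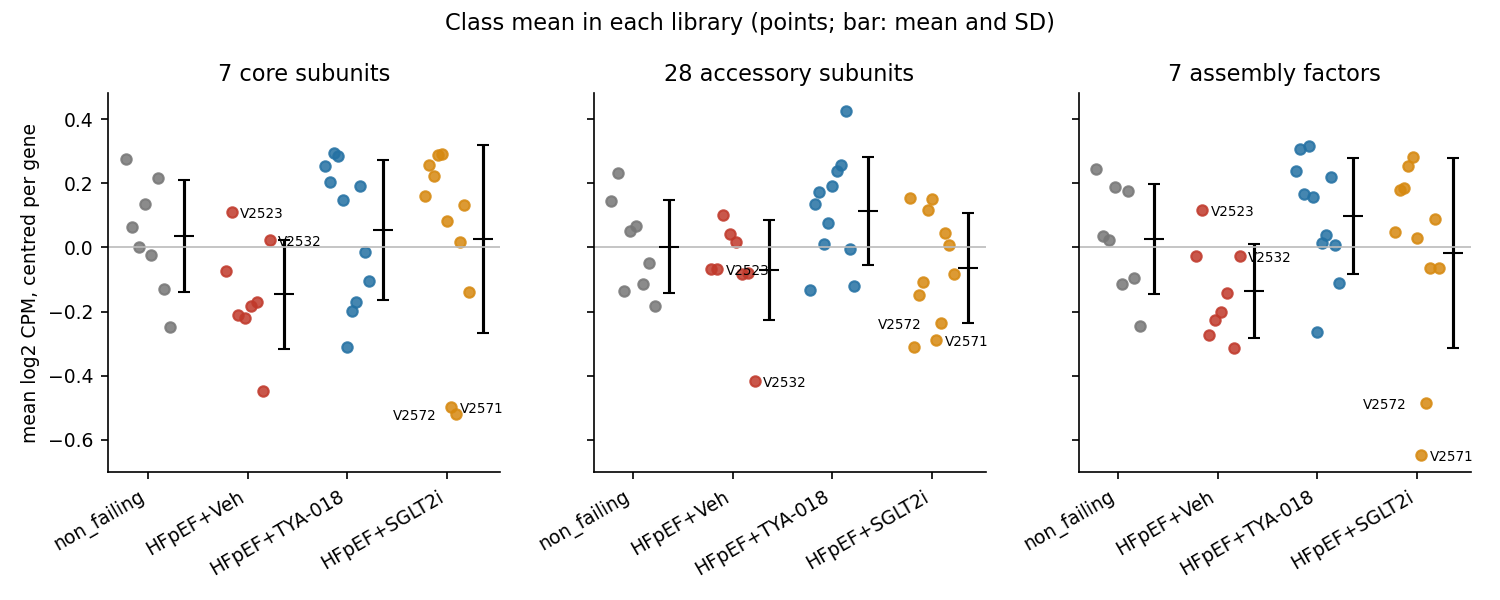
Mean log2 CPM of core, accessory and assembly genes in each library, each gene centred over the 38 libraries (y axis, log2); points are libraries, bars the group mean and SD. V2571 and V2572 lie lowest in the core and assembly panels, and V2532 lies lowest in the accessory panel at -0.416 while its core mean is 0.024.

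The drugs were then compared directly, which also tests whether their effects against the shared vehicle group differ. In HFpEF+TYA-018 40 of 44 members were higher than in HFpEF+SGLT2i, with a median log2 fold change of 0.149 against -0.005 over all genes. No member was called by edgeR or limma, and 2 were called by DESeq2. By edgeR 0% of all genes were called in this comparison (913 higher and 908 lower at an unadjusted p under 0.05), by DESeq2 185 were, and by limma on log2(TPM + 1) 0. At an unadjusted p under 0.05, 14 members were higher with TYA-018 (31.8%), against 6.63% of all genes, and 1 was lower.

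Of the accessory subunits 28 of 28 were higher with TYA-018 (median 0.19), 11 of them at an unadjusted p under 0.05. Core genes were higher in 4 of 7 cases (0.11) and assembly factors in 6 of 7 (0.12). The smallest p-values belonged to Ndufa8, with 0.22 (SE 0.066, 95% interval 0.082 to 0.350, adjusted p = 0.133 by edgeR), and Ndufa12, with 0.22 (SE 0.067, 95% interval 0.081 to 0.353, adjusted p = 0.138 by edgeR). By DESeq2 these 2 genes were called, with adjusted p = 0.048 and 0.049. By limma on log2(TPM + 1) Ndufa8 differed by 0.13 (adjusted p = 0.401) and Ndufa12 by 0.069 (adjusted p = 0.556). With the effective-length deviation of the libraries as a covariate the values were 0.14 for each gene (adjusted p = 0.181 and 0.183 by edgeR), and with the length offset Ndufa12 stood at 0.12 (adjusted p = 0.416). Ndufa8 ran from 8.06 to 8.61 log2 CPM with empagliflozin and from 8.40 to 8.75 with TYA-018, and 11 of 11 TYA-018 hearts exceeded the empagliflozin mean.

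Among the other classes Ndufv2 differed by 0.23 (SE 0.083, adjusted p = 0.216 by edgeR) and Ndufaf4, a Q module assembly factor, by 0.12 (SE 0.058, adjusted p = 0.355 by edgeR). Ndufa5 differed by 0.25 (SE 0.101, adjusted p = 0.279 by edgeR), at 8.44 to 9.29 log2 CPM against 8.23 to 8.91, and by 0.006 (adjusted p = 0.96 by edgeR) with the effective-length deviation of the libraries as a covariate. Ndufv1 was the member lower with TYA-018 at an unadjusted p under 0.05, at -0.33 (SE 0.154, unadjusted p = 0.0419, adjusted p = 0.356 by edgeR). Its TYA-018 hearts were widely spread, from 7.25 to 9.06 log2 CPM, against 8.30 to 9.11 with empagliflozin. Without V2571 and V2572 the members' median between the drugs was 0.081 and 9 members were higher at an unadjusted p under 0.05, against 6.47% of all genes in that fit, so these 2 hearts bear on the size of the difference. Without V2523 the median was 0.153. Cardiomyocyte markers were higher with TYA-018 in 6 of 7 cases (median 0.141) and erythroid markers in 5 of 5 (median 0.757), with 0 called by edgeR in either, and their part was not tested.

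Both treated groups were also set against non_failing hearts. In HFpEF+TYA-018 38 of 44 members were higher than in non_failing, with a median of 0.104 against 0.005 over all genes, and 1 was called where 7.39% of all genes were. At an unadjusted p under 0.05, 4 members were higher (9.09%) against 11.1% of all genes, and 2 to 7 with a single library left out. With total counts as library sizes 34 of 44 members were higher (median 0.045). By limma on log2(TPM + 1) 31 of 44 were (0.032), and with the effective-length deviation of the libraries as a covariate 32 of 44 (0.055). Relative to the median of all genes the members stood 0.052 to 0.101 higher over 12 settings. The called member was Ndufa3, which rose by 0.40 (SE 0.118, 95% interval 0.155 to 0.635, adjusted p = 0.032 by edgeR). With the effective-length deviation of the libraries as a covariate it rose by 0.23 (adjusted p = 0.00554 by edgeR). With total counts as library sizes it missed the threshold (adjusted p = 0.0677 by edgeR), as it did by limma on log2(TPM + 1) (0.35, adjusted p = 0.112), and it was called in 29 of 38 fits with a library left out. Its level was 7.39, 7.64 and 7.92 log2 CPM at the lowest, median and highest non_failing heart, and 7.59, 7.99 and 8.53 in HFpEF+TYA-018, so the ranges overlapped although 10 of 11 treated hearts exceeded the non_failing mean. HFpEF+Veh lay at 7.29, 7.86 and 8.22, a difference of 0.21 from non_failing (SE 0.126, p = 0.101 unadjusted by edgeR). Ndufaf5, an assembly factor that hydroxylates Ndufs7, differed by 0.22 (SE 0.110, adjusted p = 0.228 by edgeR). Ndufa5 differed by 0.056 (SE 0.110, adjusted p = 0.818 by edgeR).

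Ndufa12 did not separate HFpEF+TYA-018 from non_failing at this threshold, at -0.058 (SE 0.073, p = 0.432 unadjusted by edgeR). The value was -0.114 with total counts as library sizes, -0.103 with the effective-length covariate and -0.135 by limma on log2(TPM + 1) (adjusted p = 0.0717 by limma). In HFpEF+SGLT2i it did and fell by 0.28 on the log2 scale (SE 0.073, 95% interval -0.424 to -0.128, adjusted p = 0.0159 by edgeR). The empagliflozin hearts ran from 7.70 through 7.97 to 8.23 log2 CPM, and 11 of 11 lay below the non_failing mean. That gene was the 1 member called in HFpEF+SGLT2i against non_failing, where 6.45% of all genes were called. There 34 of 44 members were lower, with a median of -0.041 against 0.005 over all genes. At an unadjusted p under 0.05, 1 member was lower (2.27%) against 9.05% of all genes, and 1 was higher.

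Leaving out V2571 and V2572 turned the family's direction in HFpEF+SGLT2i against non_failing. Then 25 of 44 members were higher with a median of 0.019, and Ndufa12 stood at -0.22 (adjusted p = 0.0528 by edgeR). Among the assembly factors Ndufaf4 had the smallest p in the full set, at -0.081 (SE 0.063, adjusted p = 0.522 by edgeR). Ndufa5 stood at -0.19 (SE 0.110, adjusted p = 0.334 by edgeR). Cardiomyocyte markers were lower than in non_failing in 6 of 7 cases for HFpEF+TYA-018 (median -0.156, 0 called by edgeR) and in 5 of 7 for HFpEF+SGLT2i (median -0.243, 3 called). Hepatocyte markers were called lower in 7 and 6 of 8 cases, with summed levels of 36.4 to 309 TPM in non_failing. Brown adipocyte markers were called higher in 2 and 1 of the 3 tested, at 19.7 to 26.8 TPM summed over 5 in non_failing, 29.7 to 44.45 TPM in HFpEF+TYA-018 and 29.6 to 54.6 TPM in HFpEF+SGLT2i. Erythroid markers were higher in 5 of 5 cases in each (medians 1.066 and 0.327, 1 and 0 called by edgeR). Fibroblast markers were higher in 4 and 5 of 6 (medians 0.09 and 0.144), with 1 called higher in each and 1 called lower in HFpEF+SGLT2i. In HFpEF+TYA-018 1 endothelial marker was called higher while 4 of 5 were lower, and 1 smooth muscle and pericyte marker was called in each direction. The part of these cell types was not tested.

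Within the core, accessory and assembly classes the members mostly varied together from heart to heart, and less so between classes. After group means were removed, the median pairwise correlation of log2 CPM over 38 libraries was 0.709 among core genes, 0.737 among accessory genes and 0.657 among assembly factors. It was 0.25 between core and accessory genes, where pairs ran from -0.697 to 0.94 and 65.3% were positive. Between subunits and assembly factors it was 0.331 (72.2% positive), and among every 10th gene tested -0.002 (49.7% positive). These correlations share libraries and scaling and are given as a description. Ndufb8 followed the mean of the other subunits most closely (r = 0.94, n = 38), and Ndufs7 was the core gene that did so best (0.899). Ndufs1 (0.057) and Ndufv1 (-0.157) did not follow it.

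The balance of accessory to core genes moved with a property of the library. The authors' effective lengths, in bases, allow each library to be placed by how far the lengths of 4556 long, well-counted genes deviate from their medians over all libraries. This deviation ran from -246 bases in V2555 to 367 bases in V2562, and the group means were 22.4 bases for non_failing, -7.57 for vehicle, -57.4 for TYA-018 and 73.9 for empagliflozin. After V2555 the lowest values were those of V2551 (-213.3), V2552 (-209.9) and V2550 (-170.5), also TYA-018 hearts. These hearts and V2555 had the highest accessory means of their group, and their part in its differences was not tested. Against it, the accessory minus core mean had r = -0.905 and rho = -0.907 after group means were removed (n = 38), and r = -0.880 without V2532 and V2562. Within the groups r was -0.760 for non_failing, -0.964 for vehicle, -0.935 for TYA-018 and -0.863 for empagliflozin. The median effective length was 434 bases for accessory genes, 851 for core genes and 929 for assembly factors. The classes overlapped, at 192 to 1645, 542 to 1268 and 607 to 1703 bases. The part of gene length in this balance was not tested. With sequencing depth the same balance had r = -0.661 and rho = -0.675, and r = -0.581 without V2532 and V2564.

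**Figure D5:**
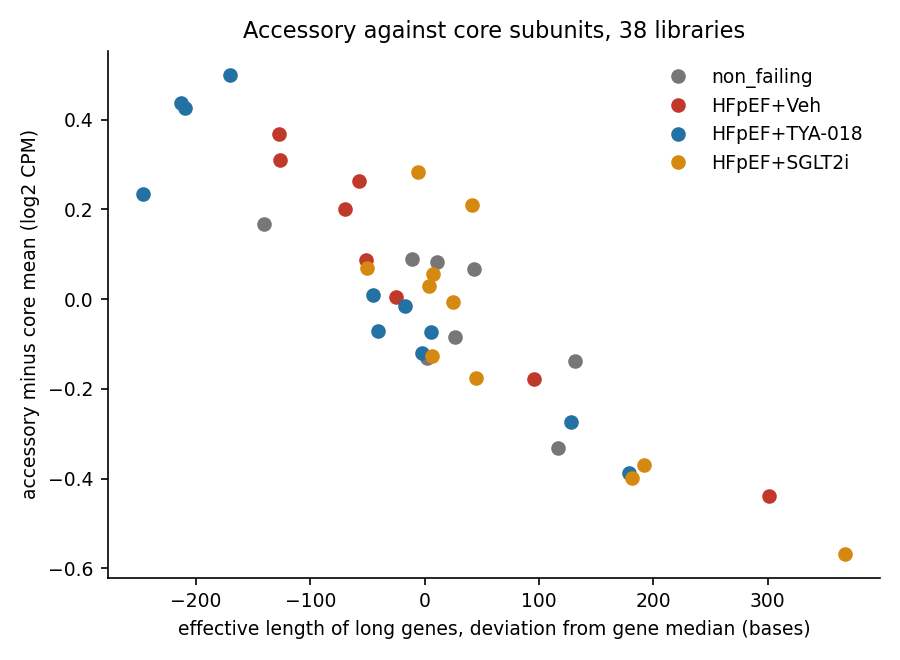
Each of 38 libraries by the deviation of its effective lengths (x axis, bases) and the accessory minus core mean (y axis, log2 CPM, genes centred over the libraries), coloured by group. Libraries at the right end, V2532 at 301 bases and V2562 at 367 bases, have the lowest accessory level relative to core, and the plotted values include the differences between group means.

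The mean of all 44 members was less closely tied to that deviation (r = -0.264, rho = -0.250, and -0.172 without V2532 and V2562). It went with the mean of the cardiomyocyte markers (r = 0.609, rho = 0.527, and 0.404 without V2571 and V2572), although not within each group (0.789 for non_failing, -0.028 for vehicle, 0.211 for TYA-018 and 0.856 for empagliflozin). With the mitochondrially encoded share r was -0.464, rho -0.344, and r -0.245 without V2571 and V2572. The member mean with depth had r = 0.082, rho = 0.011, and r = 0.179 without V2532 and V2564. In all 6 such relations were computed.

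When the effective-length deviation was added to the model as a covariate, a choice made after seeing the data, some calls changed. In HFpEF+TYA-018 against HFpEF+Veh 8 members were then called, all higher (Ndufs7, Ndufv2, Ndufa8, Ndufa10, Ndufa12, Ndufb10, Ndufv3 and Ndufaf1), with a median of 0.187, and 5.72% of all genes were called in that fit. In HFpEF+Veh against non_failing, with 4.46% of all genes called, Ndufa12 and Ndufa5 were called lower, Ndufa5 at -0.20 (adjusted p = 0.0279 by edgeR). Between the drugs the members' median fell to 0.078 with 32 of 44 higher. In HFpEF+SGLT2i against HFpEF+Veh 43 of 44 members were higher with a median of 0.095, and 0 were called by edgeR.

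Other genes of the pathway were read from lists. The 7 mitochondrially encoded complex I subunits were lower in HFpEF+Veh than in non_failing in 7 of 7 cases (median -0.20), with 4 at an unadjusted p under 0.05, against 7.41% of all genes, and 0 called by edgeR. With TYA-018 6 of 7 were higher than with vehicle (median 0.16, 2 at that level against 8.73% of all genes), and with empagliflozin 6 of 7 (0.14, 1 at that level against 4.14%), with 0 called by edgeR in either. Their correlation with the nuclear subunits across hearts had a median of -0.198.

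Of the complex I assembly factors with other names, 13 of 13 were higher with TYA-018 than with vehicle (median 0.15) and 1 was called, where 1.93% of all genes were. This was Ecsit, a partner of Ndufaf1 in the membrane arm assembly complex, which rose by 0.24 (SE 0.064, adjusted p = 0.04 by edgeR). In HFpEF+TYA-018 against non_failing Tmem261 (Dmac1), a membrane arm assembly factor, was called with 0.23 (SE 0.071, adjusted p = 0.0419 by edgeR), 1 of 13 where 7.39% of all genes were called.

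Of 40 nuclear genes of complexes II to V, 32 were lower in HFpEF+Veh than in non_failing (median -0.074, 10 at an unadjusted p under 0.05 against 7.41% of all genes, 0 called by edgeR), and 40 of 40 were higher with TYA-018 than with vehicle (median 0.19, 17 at that level against 8.73%). Atp5g1, a ring subunit of ATP synthase, was called there with 0.33 (SE 0.083, adjusted p = 0.0277 by edgeR), as 1 of 40 where 1.93% of all genes were called. With empagliflozin 25 of 40 were higher than with vehicle (median 0.051). Against non_failing, HFpEF+TYA-018 had higher Atp5d (0.32, adjusted p = 0.00216 by edgeR) and Cox8a (0.28, adjusted p = 0.00365), as 2 of 40 where 7.39% of all genes were called. HFpEF+SGLT2i had lower Cox6a2 (-0.26, adjusted p = 0.0482 by edgeR), as 1 of 40 where 6.45% were.

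Of 14 regulators of mitochondrial genes, 8 were higher with TYA-018 than with vehicle (median 0.059) and 0 were called by edgeR. At an unadjusted p under 0.05, 1 was higher and 1 lower, against 8.73% of all genes higher and as many lower. Gabpa, an ETS factor, was called in HFpEF+TYA-018 against non_failing, where it fell by 0.29 (SE 0.075, adjusted p = 0.0132 by edgeR), as 1 of 14 where 7.39% of all genes were called.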

How the data were processed

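Left ventricular RNA was captured by its poly(A) tail and sequenced with a stranded kit. The authors quantified transcripts with Salmon 1.6.0 on GRCm38 (the labels name another build, hg38) and summed them to genes. The deposited expected counts per gene hold fractions where reads were shared, and the TPM the authors deposited sum to 950659 to 965392 per library over the listed genes. A deposited table of effective lengths, in bases, links both and is treated as another kind of value (a length). Unmapped columns numbered 0. The precision of each test follows from depths of 21.5 to 59.3 M counts and from the spread between mice.

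Counts were rounded and tested with edgeR 4.0.16 in R 4.3.3 (filterByExpr, TMM, quasi-likelihood F test, two-sided, 1 model of the 4 groups, no covariate). log2 CPM used a prior count of 2. Intervals are 95%, from the SE. Alternatives were library size alone, RLE factors, no filter, DESeq2 1.42.0, limma 3.58.1 on log2(TPM + 1) and log2(TPM + 0.1) with genes detected in 90% of libraries, a length offset, mitochondrially encoded genes removed, 2 groups only and leaving out each library. The fits were also run on simulated counts with known changes, and the outcome is not given here. Those counts were drawn separately for each gene, without shared variation or effective-length differences, so they do not test such effects. The members and lists were chosen with earlier results of these data known, and the direction of the family was among those results. Full statistics are given for called members, for the member with the smallest p of each class in each comparison, and for Ndufa5 and Ndufa12, which the study displays; Ndufb10, Ndufv2 and Ndufv1 in other comparisons were named after their values were seen. The values of 1 member are not reported here on their own, though counts and medians include it. Promoters are from RefSeq, and 6 members had none in the table. Ndufb1-ps and Coa1 were listed but not matched to a row.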

Additional observations from a re-analysis of the deposited data

Results flagged for a closer look

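In groups of 8 libraries, a library was marked when its gap to the nearest other divided by the group's range, exceeded Dixon's critical value. Of 90 such groups of member values (44 members and their mean, in non_failing and HFpEF+Veh), 9 were marked, and chance marks about 1 in 20. In each of them the library was V2532 of HFpEF+Veh, at the low end. Its levels were 7.55 log2 CPM for Ndufa11, 7.38 for Ndufa2, 7.9 for Ndufa6, 8.05 for Ndufa8, 5.72 for Ndufb4, 8.92 for Ndufb9, 7.05 for Ndufc1, 7.29 for Ndufs5 and 7.61 for Ndufv3. These 9 are accessory genes, which share this library and vary together, so they are not 9 separate events. V2532 had 57.7 M counts (M standing for 1000000), the highest depth of its group, and an effective-length deviation of 301 bases, and the part of either in these values was not tested.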

How the results depend on the processing

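The number of members called in HFpEF+TYA-018 against HFpEF+Veh moved most. It was 3 in the model reported, 5 by DESeq2 (adding Ndufb10 and Ndufv2), and 0 with library size alone, by limma with either pseudocount and with 2 groups only. Settings chosen after seeing the data gave 8 without V2571 and V2572 and 8 with effective length as a covariate. The members' median there was 0.048 by limma with either pseudocount. The shares of all genes called in fits with single libraries left out are not given. In these fits the count ran from 0 to 5 and the median from 0.161 to 0.221. It was 0 without V2529, V2530 or V2532, 1 (Ndufs7) without V2523, V2527, V2546, V2547, V2551, V2552 or V2555, and 5 without V2570, V2571 or V2572. Over the 38 such fits Ndufs7 was called in 35, Ndufa12 in 28 and Ndufa8 in 23.

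In HFpEF+TYA-018 against non_failing the count was 0 with library size alone and by limma with either pseudocount, 2 (Ndufa3 and Ndufa8) without V2571 and V2572, where 8.41% of all genes were called, and 0 to 2 with single libraries left out (0 without V2503, V2507, V2508, V2509, V2510, V2550, V2551, V2552 or V2555, and 2 without V2501). Between the drugs DESeq2 called 2. With effective length as a covariate 2 members were called in HFpEF+Veh against non_failing, near the share of all genes given above. In HFpEF+SGLT2i against non_failing 2 (Ndufa12 and Ndufa3) were called with that covariate, below the share of all genes, whose calls are given below. Ndufa12 was called in 38 of 38 fits with a library left out in HFpEF+Veh and in HFpEF+SGLT2i against non_failing, at adjusted p by edgeR of 0.00677 to 0.029 and 0.0079 to 0.0414. In those fits the count was 1 in HFpEF+Veh against non_failing and in HFpEF+SGLT2i against non_failing, and 0 in HFpEF+SGLT2i against HFpEF+Veh and between the drugs. The medians ran from -0.126 to -0.064, from -0.07 to -0.004, from 0.023 to 0.081 and from 0.116 to 0.173, and in HFpEF+TYA-018 against non_failing from 0.064 to 0.131. At an unadjusted p under 0.05, 0 to 8 members were higher in HFpEF+SGLT2i against HFpEF+Veh and 10 to 21 in HFpEF+TYA-018 against HFpEF+SGLT2i. In HFpEF+SGLT2i against non_failing 1 to 3 were lower and 0 to 1 higher. The shares of all genes at that level in these fits are not given.

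The sign turned for Ndufa5 in HFpEF+SGLT2i against HFpEF+Veh (0.093 with the covariate), for Ndufa12 there (-0.022 with library size alone), and for Ndufa5 in HFpEF+TYA-018 against non_failing (-0.001 with library size alone, -0.017 by limma with either pseudocount, -0.1 with the covariate); the cause was not tested. Over all genes, HFpEF+TYA-018 against HFpEF+Veh had 115 higher and 151 lower calls, and library size alone gave 1096 (2.28% higher), limma on log2(TPM + 1) 38 (7.89% higher), no filter 618 (20.4% higher), DESeq2 402 (54% higher) and 2 groups only 58 (74.1% higher), with 432 without V2571 and V2572 and 787 with the covariate. For HFpEF+SGLT2i against HFpEF+Veh 117 calls became 457 with no filter, 319 without V2571 and V2572, 3 with 2 groups only, 2 without V2523 and 0 by limma. Between the drugs 0 became 185 by DESeq2, 276 with the covariate and 5 with the length offset. Against non_failing, 1017 calls in HFpEF+TYA-018 became 612 and 888 in HFpEF+SGLT2i became 521 by limma, and the latter 1778 with the covariate. In HFpEF+Veh against non_failing 243 were higher and 190 lower, with 79.5% higher under library size alone and 70.6% by limma. No paired analysis was possible because mouse numbers are not shared between groups.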

Other observations

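The effective length of a gene in a library depends on the transcripts quantified there and on how fragment lengths and biases were modelled for that library. Taken relative to the gene's own mean and to the median gene of the library, it varied more than 1.5-fold for 4 members, among them Ndufs1 (2.02-fold), Ndufv1 (1.66-fold) and the acyl carrier protein Ndufab1 (1.58-fold). Group differences in this relative length were tested for these 4 in the 6 comparisons, a choice made after seeing the data. Of 24 two-sided permutation tests 0 had an adjusted p under 0.05, and the smallest unadjusted p was 0.186, for Ndufv1 in HFpEF+Veh against non_failing (exact permutation test, adjusted p = 0.919). The other 40 members were not tested.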
